A study of Mus musculus with 221 samples.

Results

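The Fbxw genes described here are 10 members of a tandem gene family on mouse chromosome 9, Fbxw15, Fbxw16, Fbxw18, Fbxw19, Fbxw20, Fbxw21, Fbxw22, Fbxw24, Fbxw26 and Fbxw28. They were chosen by name as oocyte-expressed F-box genes, out of 55291 genes in the count table, and all 10 were found in it and passed the filter on low counts. RNA was profiled in single early 2-cell embryos by Smart-seq2, a protocol that copies polyadenylated RNA from few cells and amplifies it by PCR. In both groups the oocytes came from superovulated, unexposed C57BL/6N-mtST females, which carry the mitochondrial genome of the Staudach line, and were fertilized in vitro with frozen and thawed sperm of C57BL/6N males. The 99 LFD embryos, 44.8% of all, had a sire fed a low-fat diet, and the HFD embryos, the other 55.2%, a sire fed a high-fat diet. The sires were young adults after a short exposure. The methods of the study state that on each day of fertilization 1 male of each diet was used, and that males differed between days. By these methods the males of each diet were few, while the tests here count each embryo as a replicate. The labels name neither the sire nor the day of an embryo, so that embryos of 1 sire are not independent of each other, sire could not enter the tests, and a diet effect and a sire effect cannot be told apart.

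F-box proteins are the substrate receptors of SCF ubiquitin ligases. The F-box holds the protein to Skp1, which joins it to the cullin Cul1 and the RING protein Rbx1, and the rest of the F-box protein chooses what is marked with ubiquitin. In the Fbxw class the substrate is held by WD40 repeats, as in Btrc and Fbxw7, which are known for the turnover of signalling and cell cycle proteins. The chromosome 9 copies are an expansion in rodents known for expression in the growing oocyte, and the substrates of the individual copies are not well known. An early 2-cell embryo still holds much of the RNA stored by its mother, while the first embryonic transcripts are made.

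The members covered 607 kb, from Fbxw21 to Fbxw26. They lay in a row of 15 Fbxw genes that ran on to Fbxw27, between Plxnb1 and Spink8, all on the minus strand. The order of the 15 by coordinate was Fbxw21, Fbxw13, Fbxw20, Fbxw14, Fbxw28, Fbxw22, Fbxw16, Fbxw19, Fbxw23, Fbxw15, Fbxw24, Fbxw25, Fbxw18, Fbxw26 and Fbxw27. The gene coordinates of the count table and of GENCODE vM21, both on GRCm38, were the same for all 15. Of the 5 genes that are no members, GENCODE lists Fbxw23 as a transcribed pseudogene, and Fbxw13, Fbxw14, Fbxw25 and Fbxw27 as coding for protein. The longest coding sequences of the members were 1395 to 1410 bases long, and over the 45 member pairs their identity ran from 79.1% to 92.2% with a median of 84.6%. The members are thus close copies that still differ at many positions.

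The likeness held before the genes too. RefSeq gives a promoter for 9 of the 10 members, all but Fbxw22, and over these 36 pairs the promoter identity from 250 bases before to 50 bases after the start site was 83.1% to 96.7%, with a median of 90.9%. The stretches below, of GRCm38.p6 from RefSeq, run 5′ to 3′ on the strand of the gene and end at the base before the start site RefSeq gives. They are shown for the highest member, the members with the strongest covariation and the called diet difference, the copy that lacks an element, and the lowest member. Capitals mark AATCCTG and TTTAAA, letters that were chosen after the alignment had been seen.
Fbxw24, chr9:109626060-109626139, minus strand: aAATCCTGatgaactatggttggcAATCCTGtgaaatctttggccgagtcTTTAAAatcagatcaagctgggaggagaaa
Fbxw28, chr9:109339660-109339734, minus strand: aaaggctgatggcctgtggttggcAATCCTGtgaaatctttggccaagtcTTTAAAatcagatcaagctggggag
Fbxw16, chr9:109449141-109449219, minus strand: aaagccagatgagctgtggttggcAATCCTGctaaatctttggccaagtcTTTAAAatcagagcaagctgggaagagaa
Fbxw20, chr9:109234755-109234813, minus strand: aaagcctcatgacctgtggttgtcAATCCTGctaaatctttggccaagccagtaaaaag
Fbxw26, chr9:109746090-109746167, minus strand: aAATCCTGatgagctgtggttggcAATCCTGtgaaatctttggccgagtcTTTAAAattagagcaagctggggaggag

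AATCCTG stood in the promoters of 9 of 9 members, beside 4.14% of all 27025 genes with a RefSeq promoter, searched on both strands. TTTAAA stood in 8 of 9, all but Fbxw20, beside 13.2% of all promoters. Its first base lay 25 to 30 bases before the start site in Fbxw28, Fbxw26, Fbxw16, Fbxw21, Fbxw15 and Fbxw24, and 10 and 54 bases before it in Fbxw18 and Fbxw19. The copies share 1 ancestral sequence, so these counts are not separate observations. Of the other motifs searched, TATAAA matched in 0 of 9 members and in 14.2% of all promoters. TAATTG also matched in 0 of 9 members, and in 8.15% of all promoters. The motif TAATTA did so in 0 of 9 members and in 5.31% of all promoters. The E-box CANNTG matched in 9 of 9 members and in 72.2% of all promoters. A match is a run of letters and not a shown site of binding.

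All 10 copies were found in these embryos. At a floor of 3 counts, all 10 were present in 98.6% of the embryos, 9 of them in 2 embryos and 8 of them in 1 embryo. The 4 missing values belonged to Fbxw21, with 0 counts in HFD embryos 42 and 64, and to Fbxw26, with 2 counts in HFD embryo 48 and 0 counts in HFD embryo 64. These 3 embryos had 11415 to 12918 genes with a count, among the lowest of the series, and in them 3 counts stood for 0.688 to 1.14 counts in 1000000 (CPM). A 0 there therefore only limits the level to about that value. Across the series an embryo had 1937251 to 17246791 counts, with a median of 5706066, and 8 embryos (4 HFD and 4 LFD) had fewer than 15000 genes with a count.

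Fbxw24 was by far the most abundant copy. It had 229 to 943 CPM in HFD embryos, with a median of 321, and 180 to 1447 CPM in LFD embryos, with a median of 292. Per kb of exon, its median over all embryos was 208.1 CPM, and it was the highest member in every embryo. It gave 38.6% of the members' summed counts in the median embryo and 27.8% to 52.01% over all embryos. Its mean log2 CPM was at the 97.4th percentile of the 14820 genes tested.

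A group of 6 copies followed, with medians from 44.6 down to 24.1 CPM per kb. Their median levels were 44.6 CPM per kb for Fbxw15, 41.2 for Fbxw28, 38.04 for Fbxw16, 33.4 for Fbxw22, 29.3 for Fbxw19 and 24.1 for Fbxw18. Fbxw24 exceeded Fbxw15 by 2.24 ± 0.49 on the log2 scale (mean and SD of the difference within an embryo, over all embryos). Between neighbours inside the group this difference was 0.09 to 0.23, below its SD of 0.48 to 0.66. Fbxw15 was above Fbxw28 in 60.2% of the embryos, Fbxw28 above Fbxw16 in 57.9% and Fbxw16 above Fbxw22 in 61.99%. The order of neighbours inside the group therefore did not hold from embryo to embryo. Copies further apart in the group were not compared within embryos.

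Per kb of exon, Fbxw20, Fbxw21 and Fbxw26 were the low copies. Their medians were 14.8, 11.2 and 8.19 CPM per kb, and Fbxw18 was above Fbxw20 in 89.1% of the embryos, by 0.70 ± 0.68 log2. This gap depends on exon length. Without it Fbxw18 and Fbxw20 had medians of 36.6 and 36.01 CPM, with 1519 and 2429 bases of exon. The order of the members depends on it too. Fbxw19, with 3487 bases, had a median of 102.01 CPM, second after Fbxw24 with 309.7. Fbxw20 and Fbxw21, and Fbxw21 and Fbxw26, differed by less than the SD of their differences. Fbxw26 was the lowest member in 63.8% of the embryos, Fbxw21 in 27.1% and Fbxw20 in 7.69%. Fbxw26 had 0 to 55.6 CPM in HFD embryos, with a median of 14.7, and 2.44 to 74.1 CPM in LFD embryos, with a median of 15.3.

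**Figure D1:**
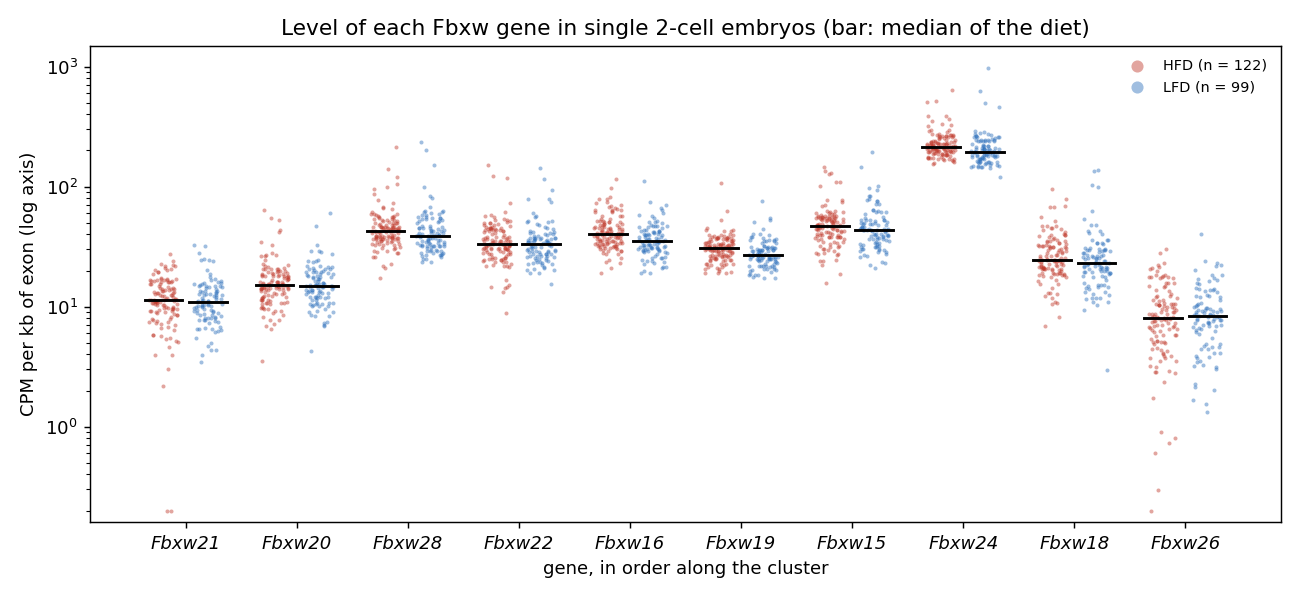
Level of the 10 Fbxw genes in each embryo, in CPM per kb of exon on a log axis, with HFD embryos in red, LFD embryos in blue and a bar at the median of each diet; values of 0 are drawn at the lower edge. Fbxw24 stood above the other copies, with a median of 208.1 CPM per kb, and the 2 diets overlapped for each gene.

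Reads that fit more than 1 place were left out by the authors' counting, so a level depends on how much of a gene is its own. Of the 100-base windows of the GENCODE transcripts, 97.99% or more of those of 9 members occurred in no other gene, and 57.7% of those of Fbxw28. The windows that Fbxw28 shared were found in Fbxw14 and Fbxw20, and its coding sequence was 99.1% identical to that of Fbxw14. Per kb of such unique windows, the median level of Fbxw28 was 68.04 CPM in place of 41.2 per kb of exon, which put it second after Fbxw24, before Fbxw15. The other 8 members kept their rank. The value of Fbxw28 is therefore uncertain, and so is that of Fbxw14.

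The 5 cluster genes that are no members were found in the same embryos. The pseudogene Fbxw23 and Fbxw14 had median levels of 70.85 and 58.4 CPM per kb, above every member but Fbxw24. Per kb of unique windows the order of these 2 turned, with 92.1 for Fbxw14 and 75.9 for Fbxw23. Fbxw27 had 27.9, and Fbxw13 and Fbxw25 had 4.53 and 4.08, below every member. Together the 15 genes had 757 to 4478 CPM, with a median of 1113, and the members 559 to 2897 CPM, with a median of 811. Of the family outside the cluster, Fbxw4 was the highest with a median of 111.5 CPM per kb, and Fbxw5, Fbxw2, Fbxw7, Fbxw8, Fbxw9, Fbxw11, Fbxw17 and Btrc had 0.448 to 10.8. Fbxw10 had a median count of 0 and was not tested.

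The levels of the members went together from embryo to embryo, but weakly for most pairs. With the mean of each diet removed, the Spearman correlation (rho) of log2 CPM over all embryos was above 0 in 44 of 45 member pairs, with a median of 0.29 and a range of -0.019 to 0.58. Over all pairs of the 14820 genes tested the median was 0.007, and 25 of the 45 member pairs were above 0.28, the value that 5% of all gene pairs exceed. These are descriptions, since all genes of an embryo share its library, its depth and its composition. The strongest member pair was Fbxw24 and Fbxw28 (rho = 0.58), followed by Fbxw28 and Fbxw22 (0.48), Fbxw22 and Fbxw24 (0.45) and Fbxw24 and Fbxw18 (0.44). Fbxw24 also had the highest median over its 9 pairs, 0.39.

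Fbxw16, Fbxw21 and Fbxw26 went least with the summed level of the other members. Their rho with it was 0.32, 0.29 and 0.30. By the median over 9 pairs Fbxw16 was lowest, at 0.20, and its rho was 0.041 with Fbxw21, 0.049 with Fbxw26 and 0.099 with its neighbour Fbxw22. The lowest pair was Fbxw19 and Fbxw26, at -0.019. Fbxw19, with a median of 567 counts, had a median rho of 0.24 over its pairs. Fbxw21 and Fbxw26, the low copies, each had a median of 0.25. Fbxw21 and Fbxw26 are also the members with the fewest counts, with medians of 161 and 86, and the part of counting noise in their values was not tested.

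**Figure D2:**
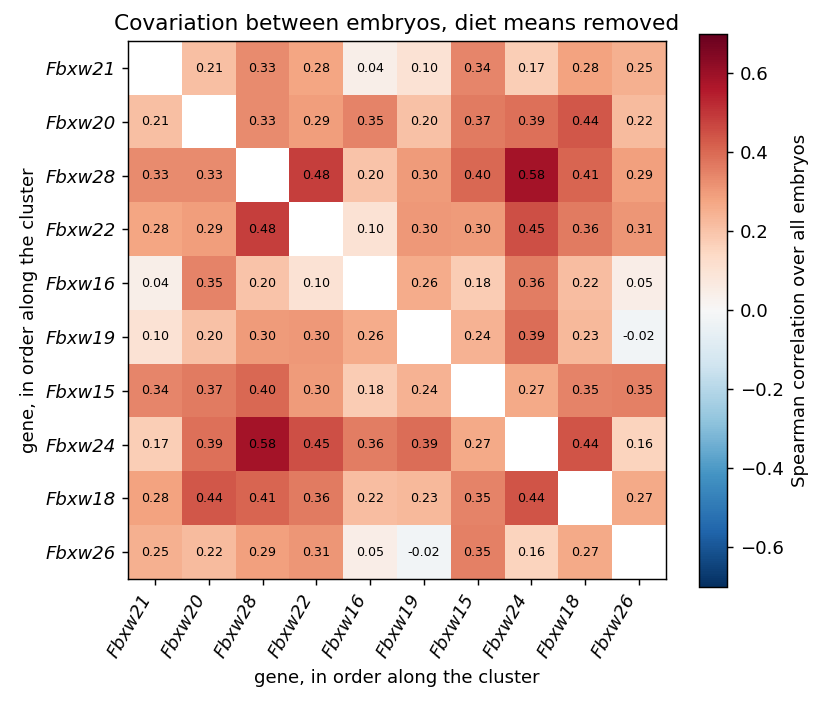
Spearman correlation of each pair of the 10 Fbxw genes over all embryos, from log2 CPM with diet means removed, with genes in their order along the cluster and the value printed in each cell. The darkest cell joins Fbxw24 and Fbxw28 (0.58), and the row of Fbxw16 is pale, with a median of 0.20.

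Place and likeness did not order the pairs clearly. Over the 45 member pairs, rho had a Spearman correlation of 0.05 with the distance between the genes and of -0.33 with the identity of their coding sequences. Over the 36 pairs with both promoters it was 0.22 with promoter identity, of the opposite sign. The pairs share genes, so these values are descriptions. Fbxw28 and Fbxw24, the pair that went together most, were at 79.1% identity, the lowest of all member pairs. Fbxw28 and Fbxw22, the pair with the highest identity, at 92.2%, came next in rho. The diets gave a median rho of 0.25 (HFD) and 0.37 (LFD), and the difference between them was not tested.

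The genes outside the members that went most with their summed level were mixed. Fbxw14 was first, with a rho of 0.68 over all embryos (0.60 in HFD and 0.76 in LFD embryos). Ldhb, a subunit of lactate dehydrogenase, had 0.56, Fbxw27 had 0.53, Pecr, a peroxisomal trans-2-enoyl-CoA reductase, had 0.53 and Creb3l4, a transcription factor of the CREB3 family, had 0.51. Over the 14810 genes outside the members the median was -0.04. Of the family outside the cluster, Fbxw4 and Btrc had 0.38 and 0.35, and Fbxw9 and Fbxw11 had -0.31 and -0.29.

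The summed level went with the number of genes found. Against the number of genes that had any count, its rho was -0.39 with diet means removed, and for the single members it ran from -0.38 (Fbxw16) to 0.038 (Fbxw21), with a median of -0.21, beside 0.074 over all genes tested. The highest summed levels, 2164 to 2897 CPM, belonged to HFD embryos 42 and 17 and LFD embryos 83, 33 and 73, which had 11364 to 17241 genes with a count. The lowest, 559 to 593 CPM, belonged to LFD embryos 64, 63, 25, 68 and 20, which had 19406 to 20442. After the number of genes with a count and the total count had been removed, the median rho of the member pairs was 0.27. After the summed level of 15 oocyte transcripts had been removed it was 0.27 as well, and that list itself had a rho of 0.30 with the summed members.

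Markers of the oocyte and of the 2-cell stage were present in these libraries. All 10 oocyte markers, among them Zp1, Zp2, Zp3, Gdf9 and Bmp15, had a median above 0, with summed levels of 747 to 6818 CPM in HFD and 1272 to 7306 CPM in LFD embryos. All 8 markers of the 2-cell stage, among them Zscan4d and Zfp352, had a median above 0 as well. Of 8 cumulus cell markers 6 had a median of 0, and their sum was 0 to 46.8 CPM (HFD) and 0 to 47.5 CPM (LFD). Of 8 macrophage markers 4 had a median of 0. Their sum had a median of 33.2 CPM in the HFD and 34.9 CPM in the LFD embryos, and reached 2223 and 68.6 CPM. The sum of this list had a rho of 0.010 with the summed members. Of its 3 tested genes Cd68 was called higher in HFD embryos (log2 fold change 1.55, edgeR adjusted p = 0.00024), and Cd68 itself had a rho of -0.017 with the summed members. The other marker sums had a rho with the summed members of 0.18 (oocyte), 0.35 (2-cell stage), -0.27 (cumulus) and 0.15 (sperm), and their part in the levels of the members was not tested. Of 6 sperm markers 5 had a median of 0.

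The spread of the members between embryos was close to that of other genes at their level. edgeR's biological coefficient of variation is the spread left after the noise expected of independent counts. Each read of a pair was counted by itself, after amplification by PCR, so some technical noise can remain in it. The coefficient was 0.268 for Fbxw19, 0.296 for Fbxw24 and 0.321 for Fbxw16, where the trend of all genes with abundance gave 0.396, 0.357 and 0.417. It was highest for Fbxw26, at 0.626 (trend 0.608), and for Fbxw18, at 0.497 (trend 0.467). It lay below the trend for 7 of 10 members and for 59.8% of all genes tested. The 3 members above the trend were Fbxw18, Fbxw26 and Fbxw28.

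**Figure D3:**
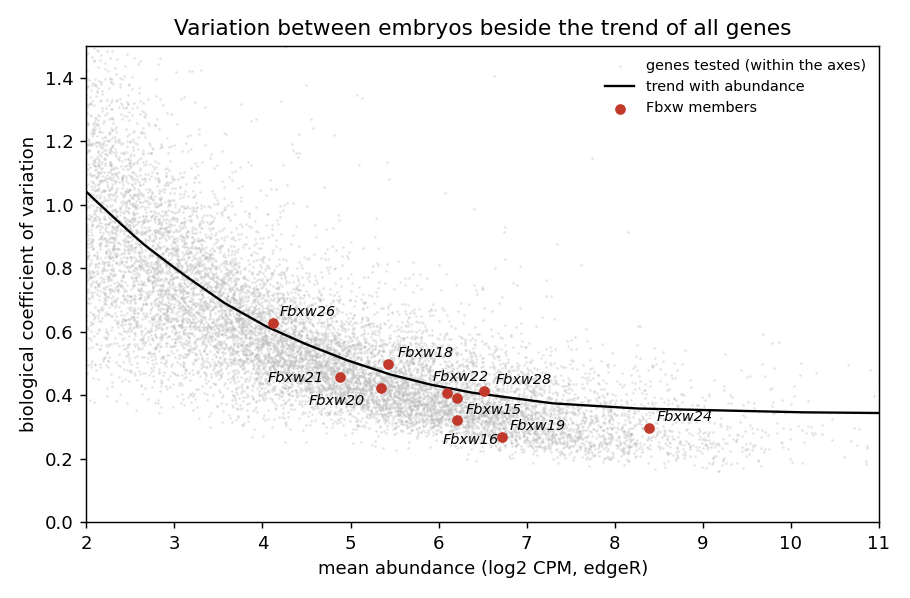
Biological coefficient of variation between embryos against mean abundance in log2 CPM, for the genes tested within the axes (grey), their trend (line) and the 10 Fbxw genes (red). Fbxw19, Fbxw16 and Fbxw24 sit below the trend, at 0.268, 0.321 and 0.296, and the others close to it.

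The spread was then compared between the diets, with limma on the absolute deviation of log2 CPM from the median of the embryo's own diet. None of the members was called (0 of 10), and 0 of 10 had an unadjusted p under 0.05. Over all 14820 genes 0.0472% were called at an adjusted p under 0.05, and 8.13% had an unadjusted p under 0.05. The widest apparent gap was that of Fbxw21, with an SD of log2 CPM of 1.12 in HFD and 0.63 in LFD embryos (log2 ratio 0.83, adjusted p = 0.84). Without the 8 embryos under 15000 genes, 4 of each diet, the log2 ratio of Fbxw21 was 0.10 and that of Fbxw26 fell from 0.43 to 0.16. Fbxw24 had the reverse, 0.34 in HFD and 0.44 in LFD embryos (log2 ratio -0.35, adjusted p = 0.76). The SD of the other members differed by log2 ratios of -0.31 to 0.43.

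The level was then compared between embryos of HFD and LFD sires, with edgeR's quasi-likelihood test over all 14820 genes and Benjamini-Hochberg adjustment. Of the 10 members 1 was called, Fbxw16, which was higher in HFD embryos. At the same threshold 2.15% of all genes tested were called, 1.26% higher and 0.891% lower in HFD embryos. An unadjusted p under 0.05 was reached by 2 of 10 members and by 13.1% of all genes. The median log2 fold change of the members was 0.04 and that of all genes 0.01.

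Fbxw16 had 34.3 to 208 CPM in HFD embryos, with a median of 72.4, and 34.3 to 200.4 CPM in LFD embryos, with a median of 63.1. The ranges overlapped almost wholly, and 68.9% of the HFD embryos were above the LFD median. The log2 fold change of HFD over LFD was 0.22 (SE 0.064, edgeR adjusted p = 0.037). The difference was smaller than the SD of log2 CPM between embryos, 0.45 in HFD and 0.45 in LFD. With total counts as library sizes, without TMM factors, it was 0.18 and no longer called (adjusted p = 0.094), and with ranges of 10 embryo numbers as a random effect it was 0.22 and not called (limma-voom adjusted p = 0.14).

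A gene on the other strand shares sequence with Fbxw16. Gm42494 (chr9:109440128-109443178, plus strand) covers 210 bases of the exons of Fbxw16, and some of the 100-base windows of Fbxw16 transcripts occur on its opposite strand. Smart-seq2 does not mark the strand, and the reads were counted with a strand setting, so that reads of this stretch can be given to either gene. Gm42494 had a median of 90 counts, a rho of 0.81 with Fbxw16 and a log2 fold change of 0.28 (SE 0.074, edgeR adjusted p = 0.018). The 2 are therefore not separate observations of a diet difference. Gm42756, on the other strand of Fbxw15, shared 168 exon bases and had a rho of 0.71 with it and a log2 fold change of 0.10 (edgeR adjusted p = 0.72).

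Fbxw19 was the second member by p. It had 66.1 to 376 CPM in HFD embryos, with a median of 107.1, and 60.05 to 266 CPM in LFD embryos, with a median of 93.2. Its log2 fold change was 0.14 (SE 0.053) and was not called (edgeR adjusted p = 0.16), although 71.3% of the HFD embryos were above the LFD median. The other 8 members had log2 fold changes from -0.03 (Fbxw26) to 0.09 (Fbxw24), with SEs of 0.058 to 0.13 and adjusted p of 0.55 and above. For Fbxw24, 72.95% of the HFD embryos were above the LFD median.

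**Figure D4:**
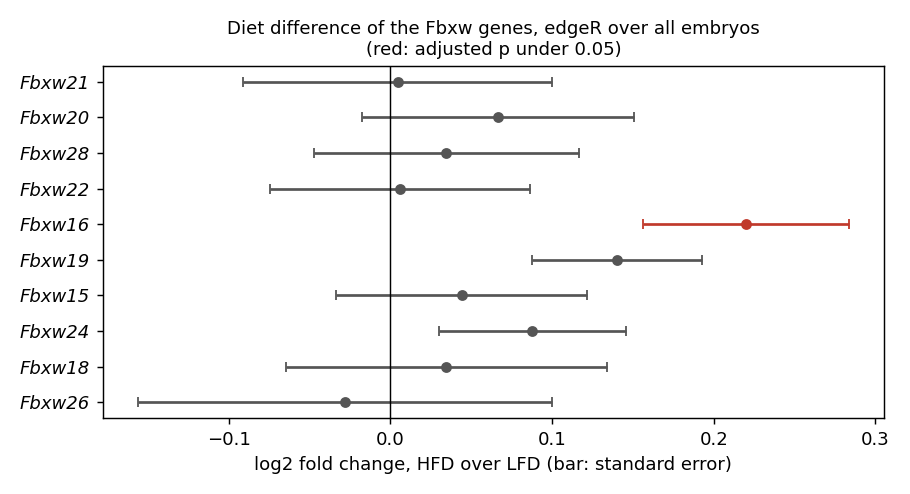
Log2 fold change of HFD over LFD embryos for the 10 Fbxw genes, with the standard error as a bar, from edgeR over all embryos, and genes with an adjusted p under 0.05 in red. Fbxw16 is the called gene, at 0.22, and Fbxw26, at -0.03, is the one below 0.

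The labels give no date, but the embryo numbers can be cut into ranges of 10. Nothing in the labels links a number of 1 diet to the same number of the other, so the ranges are not matched batches. In 11 ranges with embryos of both diets, Fbxw16 was higher in HFD in 9, by -0.25 to 0.57 log2 with a median of 0.27. The largest difference lay in numbers 41 to 50, and the differences were negative in numbers 81 to 90 and in the last range with both diets, which held 4 LFD embryos. The mean of Fbxw16 ran from 5.91 to 6.55 log2 CPM over the ranges of HFD embryos and from 5.83 to 6.33 over those of LFD embryos. When each range of each diet was left out in turn, the log2 fold change stayed between 0.17 and 0.24. Over all 24 of these fits the edgeR adjusted p ran from 0.015 to 0.19. The call was lost in 11 of 24 fits, most of all without HFD numbers 41 to 50. Fbxw15 was higher in HFD embryos in 9 of 11 ranges, Fbxw19 in 8, and Fbxw21 in 5.

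**Figure D5:**
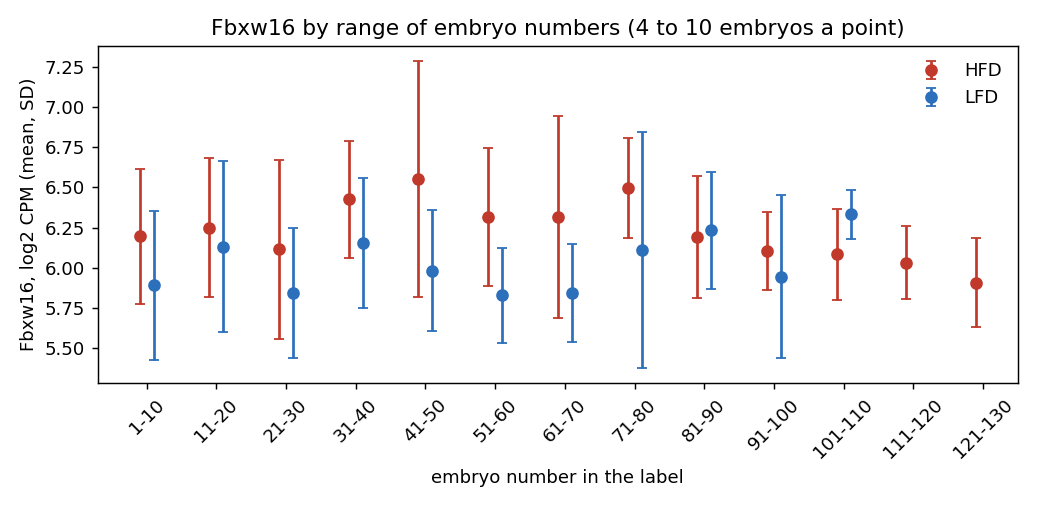
Fbxw16 in log2 CPM by range of 10 embryo numbers, with the mean of 4 to 10 embryos as a point, the SD as a bar, HFD in red and LFD in blue. HFD means were above LFD means in 9 of 11 ranges, and the last ranges hold HFD embryos alone. The labels do not link equal numbers across the diets.

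The partners of the F-box proteins were present. Of 14 SCF ligase parts and regulators found among the counts, 12 were tested, and with the filter and TMM factors 0 were called by edgeR, while 3 had an unadjusted p under 0.05. These were Dcun1d1, which helps to load Nedd8 on the cullin (log2 fold change 0.12, adjusted p = 0.073), Cand1, which exchanges the F-box receptors (-0.16, adjusted p = 0.078), and Nae1, a part of the enzyme that activates Nedd8 (0.13, adjusted p = 0.33). The scaffold Cul1 had a median of 1858 CPM and the adaptor Skp1a of 578 CPM, with log2 fold changes of 0.04 and -0.04. The calls here depended on the fit. Cand1 was called lower in HFD embryos by DESeq2, by edgeR without TMM factors, without the filter on low counts or without the 8 embryos with few genes, and by limma-voom with the embryo number as a block, but not by limma-voom without it. Dcun1d1 was called higher by edgeR without the filter, without the embryos with few genes, or with the number of genes found as a covariate. Over all genes, the calls numbered 463 of 14820 by DESeq2, 397 of 14820 without TMM factors and 7030 of 45512 without the filter. They numbered 546 of 14907 without the embryos with few genes, 417 of 14820 with the covariate and 796 of 14439 with the block. With the filter and TMM factors, edgeR called 318 of 14820.

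Of the 14 other Fbxw genes and Btrc that were tested, 0 were called by edgeR with the filter and TMM factors, by DESeq2, or by limma-voom without a block, and 2 had an unadjusted p under 0.05 by edgeR. These were Fbxw4 (log2 fold change 0.13, edgeR adjusted p = 0.098) and Fbxw2 (0.16, edgeR adjusted p = 0.36). Fbxw4 was called higher by edgeR without the filter on low counts and by limma-voom with the embryo number as a block. The 5 cluster genes outside the members had log2 fold changes of 0.05 (Fbxw27) to 0.19 (Fbxw13), with edgeR adjusted p of 0.67 and above. Of 15 oocyte transcripts 14 were tested, and with the filter and TMM factors 0 were called by edgeR, with 2 at an unadjusted p under 0.05, Zar1 (-0.34, edgeR adjusted p = 0.084) and Padi6 (-0.16, edgeR adjusted p = 0.20). Zar1, a maternal factor of the egg-to-embryo transition, was called lower in HFD embryos by DESeq2, by limma-voom with and without the embryo number as a block, and by edgeR without TMM factors or without the filter. Padi6 was called lower by limma-voom with that block. Over all genes, limma-voom without a block called 330 of 14820, and the calls of the other fits are those given for the ligase parts.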

How the data were processed

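The deposited table held whole read counts for each gene in each embryo, with no normalization by the authors. Per the study's methods and the submitters' processing notes, the authors checked reads with MultiQC 1.11, removed adaptors with Trim Galore 0.6.6 and aligned them with STAR 2.7.10a to GRCm38 with the Staudach mitochondrial genome. Per the file headers, the authors counted with featureCounts 2.0.3 over exons by gene name, with the strand setting at 2 and both ends aligned. Each read of a pair was counted by itself and reads with several places or genes were left out. Smart-seq2 keeps no strand, so this setting drops part of the reads of each gene.

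Groups came from the diet in the sample titles. Genes were kept by filterByExpr (14820 of 55291), and diet was tested with edgeR 4.0.16 (TMM, glmQLFTest, adjusted p under 0.05), spread with limma 3.58.1 on log2 CPM with a prior count of 1, and alternatives with DESeq2 1.42.0 and limma-voom, in R 4.3.3. CPM used TMM-scaled totals, and levels between genes were compared per kb of exon. Sequences were aligned with MAFFT 7.526. Both tests were tested on simulated data with known answers. The simulated embryos were independent of each other, without shared sires, and spread was simulated on log values and not on counts. Gaps as small as those of the members were not simulated. Floors and counts cover counting error only.

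The members, the lists and the motifs were chosen with earlier results of these data known. The text names the members, the other Fbxw genes and Btrc, up to 4 genes by p from each list, the 5 genes most correlated with the summed members, and opposite-strand genes chosen after their values were seen.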

Additional observations from a re-analysis of the deposited data

How the results depend on the processing

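Fbxw16 was higher in HFD embryos in 35 of 35 fits, with log2 fold changes of 0.17 to 0.31, and was called in 8 of 10 alternatives. The fits share most of their embryos, and 24 of them only leave out a range of numbers, so they are not separate observations. Fbxw19, Fbxw20 and Fbxw24 were higher in 35 of 35 fits as well. Of these, Fbxw19 was called in 1 of 10 alternatives and the others in 0. The members called numbered 0 without TMM factors and 0 with ranges of 10 embryo numbers as a random effect, against 1. With each range of numbers left out in turn they numbered 0 to 1, and the calls over all genes 204 to 431, against 318. Over all genes the calls numbered 7030 without a filter on low counts, 546 without the embryos with few genes and 86 with the random effect. Of all calls 58.5% were higher in HFD, but 30.5% without TMM factors and 70.3% without the filter. The cause of these changes was not tested. For spread, 50 genes were called without the embryos with few genes, against 7, and 0 of 10 members in each of the 4 alternatives.

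The diets share 94 embryo numbers. The same-numbered embryos had a median correlation of 0.0056, from -0.29 to 0.28, with 17 pairs above 0.1, so the numbers do not show pairs. With the embryo number as a replicate block, over 188 embryos, limma-voom called 796 genes, 43.2% of them higher in HFD, and 2 members, Fbxw16 (0.31) and Fbxw19 (0.18, adjusted p = 0.034).

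The median rho of the member pairs was 0.25 to 0.37 over the alternatives, 0.35 by Pearson. The order of the levels per kb of exon was the same for 10 of 10 members without TMM factors, by means and without the embryos with few genes. It was the same for 8 of 10 per kb of unique windows. The order by CPM without length was not among these alternatives. The library sizes over the genes tested, the ranges left out, the unique windows and the removal of the oocyte level were added after seeing the data. Fbxw21 and Fbxw26 had lowest counts of 0, in embryos with few genes found. The part of depth in these values was not tested.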
